A study of Homo sapiens with 6 samples.

Results

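The genes described here are the histone genes on the array: 82 of the 25438 deposited gene entries that carried a symbol. They were picked out by name, and this family of genes was chosen with earlier results of these data known. Symbols beginning with HIST1H, HIST2H, HIST3H or HIST4H gave 64 cluster members, and symbols beginning with H1F, H2AF, H2BF, H3F or H4F gave 18 variant members. The cluster members were 6 genes of linker histone H1, 15 of H2A, 18 of H2B, 11 of H3 and 14 of H4. The variant members were 3 of H1, 9 of H2A, 4 of H2B and 2 of H3. RNA came from A375, an established line of human melanoma cells, grown in flasks seeded with 100000 cells. LEF25 cells had 3 days with leflunomide at 25 µM, and DMSO cells had the solvent alone for the same time, with 3 Illumina bead arrays per treatment. Leflunomide inhibits DHODH, an enzyme of pyrimidine synthesis. The comparison asks how histone transcripts differed between cells with and without the drug.

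Histones package DNA into nucleosomes, whose core holds H2A, H2B, H3 and H4, while H1 binds the DNA between them. Cluster genes are transcribed mainly in S phase, when new DNA needs new nucleosomes. Their mRNAs usually end in a stem-loop and not in a poly(A) tail, although some cluster genes also make polyadenylated transcripts. Replacement variants are made throughout the cell cycle, mostly from polyadenylated mRNAs, and are placed into chromatin outside replication. The RNA was labelled with the Ambion MessageAmp kit, which primes on poly(A) tails, so the levels of cluster genes given below may be those of their polyadenylated transcripts. What share of each gene's transcripts was labelled was not tested. In bulk RNA, fewer cells in S phase and less histone mRNA per cell cannot be told apart.

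The promoters of 3 members are shown because they belong to the cluster gene that fell on all 6 arrays, to a cluster gene whose neighbour was lower with it, and to the variant gene that rose. Each is the 250 bases before the transcript start, from RefSeq on build GRCh38.p14, on the minus strand. Capitals mark matches, on either strand, to 4 motifs known from histone promoters: the octamer ATTTGCAT, the TATA box TATAAA, the CCAAT box CCAAT and the H4 hexamer GGTCCG. A match is a run of letters and not a shown binding site.
HIST1H4H (H4C8), chr6:26285535-26285784: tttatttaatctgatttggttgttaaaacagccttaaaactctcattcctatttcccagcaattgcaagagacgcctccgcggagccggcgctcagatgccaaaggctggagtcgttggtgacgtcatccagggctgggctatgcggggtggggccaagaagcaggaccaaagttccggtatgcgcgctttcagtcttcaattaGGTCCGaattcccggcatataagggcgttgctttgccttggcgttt
HIST2H2BE (H2BC21), chr1:149886683-149886932: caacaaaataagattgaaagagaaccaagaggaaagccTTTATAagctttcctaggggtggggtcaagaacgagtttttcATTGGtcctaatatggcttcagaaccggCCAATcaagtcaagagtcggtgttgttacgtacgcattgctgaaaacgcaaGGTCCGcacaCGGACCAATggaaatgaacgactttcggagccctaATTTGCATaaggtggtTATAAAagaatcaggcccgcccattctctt
H3F3B (H3-3B), chr17:75779780-75780029: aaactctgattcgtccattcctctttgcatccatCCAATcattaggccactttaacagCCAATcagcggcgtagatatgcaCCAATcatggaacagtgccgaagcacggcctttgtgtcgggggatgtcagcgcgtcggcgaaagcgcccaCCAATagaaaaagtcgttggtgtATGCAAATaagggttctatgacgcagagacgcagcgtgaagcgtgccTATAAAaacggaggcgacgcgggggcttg
The HIST1H4H promoter held 1 H4 hexamer and none of the other motifs. The HIST2H2BE promoter held 1 octamer, 2 TATA boxes, 3 CCAAT boxes and 2 H4 hexamers, and 1 of the hexamers, on the opposite strand, overlapped a CCAAT box. The H3F3B promoter held 1 octamer on the opposite strand, 1 TATA box and 4 CCAAT boxes.

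RefSeq promoters were found for 69 of the 82 members, 54 cluster and 15 variant. The octamer stood in 37.04% of cluster promoters and in 6.67% of variant promoters, against 1.66% of all 27305 promoters of the same length. Within the clusters it was in 10 of 14 H2A promoters and 9 of 13 H2B promoters, and in none of the 12 H4 promoters. Promoters of neighbouring genes on opposite strands can overlap, as those of HIST2H2BE and HIST2H2AC did. A match in such a stretch can count for both genes, and how many did was not tested. The H4 hexamer was in 11 of 12 H4 promoters, against 9.33% of all promoters. The TATA box stood in 66.67% of cluster promoters and 26.67% of variant promoters, against 11.13% of all promoters. The CCAAT box was in 83.33% of cluster promoters and 80.0% of variant promoters, against 33.04% of all promoters.

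Detection decided how many histone genes could be compared. A gene was detected on an array where its detection p-value, which compares its signal with negative control beads, was under 0.05. LEF25 arrays detected 29, 30 and 17 of the 64 cluster members, and DMSO arrays detected 27, 27 and 24. Of the 18 variant members, LEF25 arrays detected 10, 10 and 9, and each DMSO array detected 10. The 17 cluster members were those of LEF25 replicate 3, which stood apart from the rest. Its mean signal was 128.9, against 261.7 to 370.5 on the other arrays, its correlation with them was 0.890 to 0.902, and it detected 39.8% of named entries, against 47.8% to 49.9%. Results that rest on it are therefore given with and without it. By class, 13 cluster members were detected on all 6 arrays, 24 on some and 27 on none. For variants these counts were 9, 1 and 8. The 1 was H2AFY, which LEF25 replicate 3 did not detect although its signal there was 974.8.

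**Figure D1:**
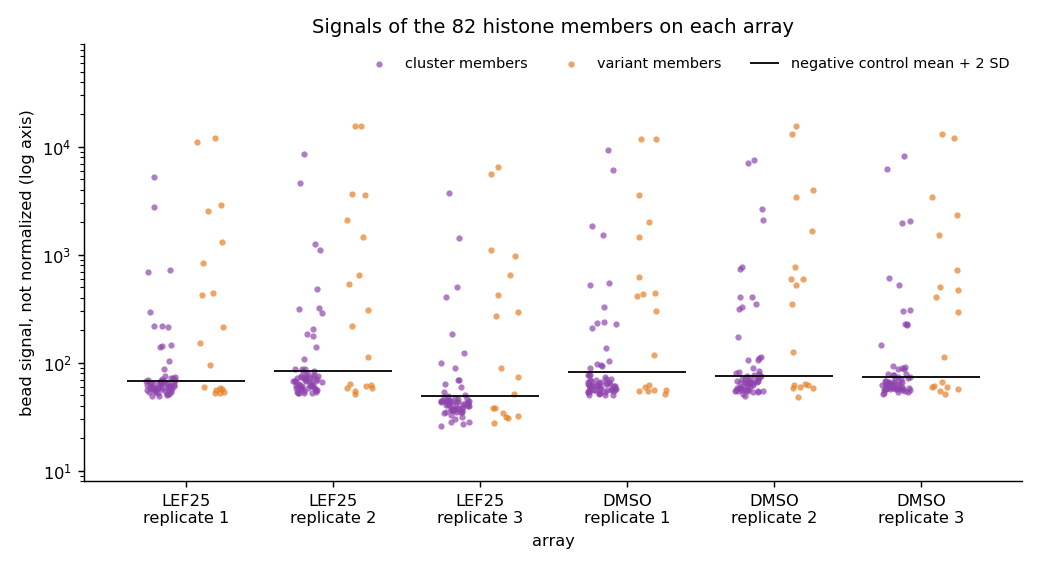
Bead signals before normalization (log axis) of the 64 cluster and 18 variant members on the 3 LEF25 and 3 DMSO arrays, with the negative control mean plus 2 SD as a black line. Most cluster members lie near that line on each array, and the members as a whole lie lowest on LEF25 replicate 3.

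Most cluster genes gave signals near background. A mean signal over 150 was reached by 11 cluster and 10 variant members, and one over 1000 by 4 cluster and 5 variant members. The negative control mean was 36.8 on LEF25 replicate 3 and 56.5 to 59.6 on the other arrays. Genes detected on at least 3 of the 6 arrays were tested, which kept 26 cluster members and 10 variant members. The 38 cluster and 8 variant members that were not kept have no fold change here. They include the testis and oocyte histone genes HIST1H1T, HIST1H2AA, HIST1H2BA and H1FOO. For 42 of them, the signals ran between 26.0 and 84.7 on LEF25 arrays and between 48.0 and 72.7 on DMSO arrays. The other 4, HIST1H2AG, HIST1H2BD, H2AFJ and H2AFB2, had detection p-values that were not ranks among the negative controls, as a combination over several probes could give. H2AFJ thus counts as detected on no array, although its signals ran from 73.8 to 354.4. The kept variant H2AFY had such p-values too, so its missed detection on LEF25 replicate 3 does not mean a signal near background. No kept member lacked detection on every array of a treatment. Each probe has its own brightness, so signals of different genes are not compared as levels.

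On balance, with quantile normalization, cluster members were lower and variant members higher on LEF25 arrays, and few of them passed the test. By limma with Benjamini-Hochberg adjustment over 12345 genes, 1 of 26 cluster members fell and none rose, where 1.07% of all genes passed, with 0.834% lower and 0.235% higher. Of 10 variant members 1 rose and none fell. The median log2 fold change, LEF25 over DMSO, was −0.21 over cluster members and 0.31 over variant members, beside −0.0020 over all genes tested. It lay below 0 for 21 of 26 cluster members and 3 of 10 variant members, against 50.2% of all genes. The medians without LEF25 replicate 3 were −0.14 for cluster members, with 17 of 26 below 0, and 0.23 for variant members. All LEF25 arrays lay below all DMSO arrays for 9 cluster and 2 variant members, against 15.3% of all genes, and above them for 3 cluster and 6 variant members, against 14.5%. Relative to the DMSO mean, the median cluster member stood at −0.21, −0.09 and −0.35 on the LEF25 arrays and at −0.02, 0.06 and −0.05 on the DMSO arrays. The median variant member stood at 0.22, 0.23 and 0.35 on the LEF25 arrays and at −0.06, −0.02 and 0.05 on the DMSO arrays. The groups of 3 did not overlap in either class under quantile normalization. Setting each gene against its DMSO mean holds the DMSO medians near 0. The median over all genes stood between −0.013 and 0.0068 on the LEF25 arrays.

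Fold changes depended on how the arrays were scaled. Under median scaling in place of quantile normalization, the median of all genes was −0.53, that of cluster members −0.49 and that of variant members −0.26, with no gene past the threshold. Relative to all genes, the variant median thus remained higher there, and 13 of 26 cluster members were below the median gene. With LEF25 replicate 3 left out, median scaling gave −0.19 for all genes, −0.25 for cluster members and 0.09 for variant members, so the variant median was then above 0. Signal level entered too. The 10 kept cluster members with a mean signal over 150, a line drawn after the data were seen, had a median of −0.59, and the 16 dimmer ones had −0.12. With median scaling these medians were −1.24 and −0.20, against −0.67 and −0.30 for all genes above and below that line. Values given below relative to the median gene use the median of all genes, −0.53, whatever the signal level of the gene. Median scaling without LEF25 replicate 3 gave −0.83 and −0.10 for the brighter and dimmer cluster members, against −0.24 and −0.14 for all genes above and below the line. The quantile medians without it were −0.62 for the brighter and −0.03 for the dimmer cluster members. Of the 10 brighter cluster members, 9 under quantile normalization and 8 under median scaling were below the median of all bright genes, and 8 in each without LEF25 replicate 3. The dimmer ones lay close to other dim genes once that array was left out.

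**Figure D2:**
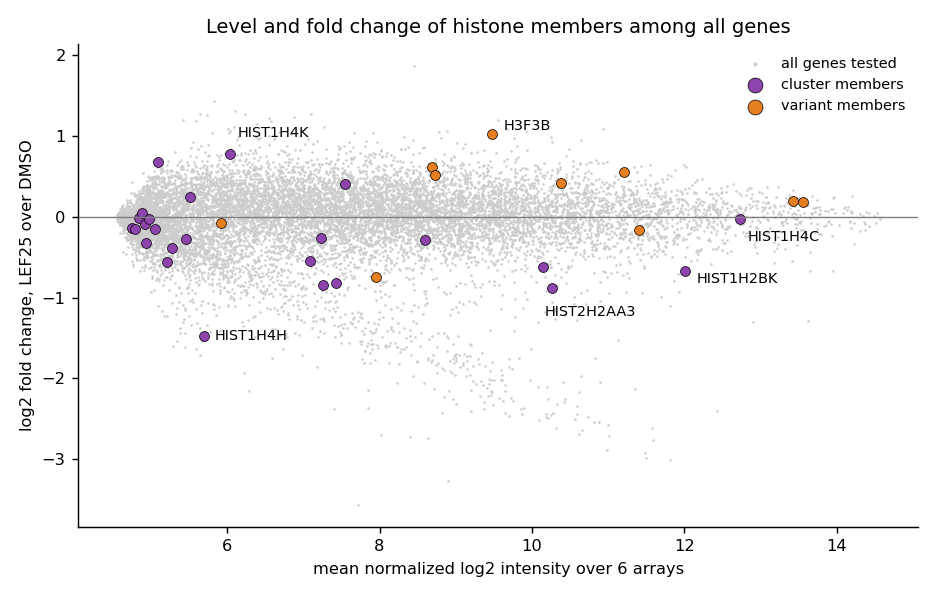
Log2 fold change, LEF25 over DMSO, against the mean normalized log2 intensity over 6 arrays for 12345 genes (grey), 26 cluster members and 10 variant members. Brighter cluster members lie mostly below 0, with HIST1H4C at −0.02 and HIST1H2BJ at 0.41, and most variant members lie above 0.

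HIST1H4H, one of the genes for the core histone H4, had the largest decrease among the histone genes under quantile normalization. Its normalized log2 intensity was 4.83, 5.32 and 4.72 on LEF25 arrays, against 6.36, 6.48 and 6.44 on DMSO arrays. The groups did not overlap and differed by more than a log2 unit. It fell 2.78-fold (log2 fold change −1.47 ± 0.17 SE, adjusted p = 0.027 by limma), and without LEF25 replicate 3 the log2 fold change was −1.52 (adjusted p = 2.2e-05 by limma). Leaving out any 1 of the other 5 arrays gave −1.62 to −1.37, with adjusted p = 0.052 to 0.20 by limma. It was detected on 2 of 3 LEF25 arrays and on 3 DMSO arrays, so its level with the drug lay close to background. Under median scaling it stood at −1.79 (adjusted p = 0.15 by limma), which is −1.27 relative to the median gene. HIST1H2BD, described below, was at −1.80 under that scaling. Without background correction HIST1H4H was at −0.75 (adjusted p = 0.030 by limma).

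The other kept H4 genes of the HIST1 cluster showed no such decrease. HIST1H4C had a mean signal of 7168 and was far above background on each array. Its log2 intensity was 12.50, 12.68 and 12.99 on LEF25 arrays and 12.97, 12.43 and 12.84 on DMSO arrays. These groups overlapped throughout (log2 fold change −0.02 ± 0.20 SE, adjusted p = 0.96 by limma), and the sign of the difference changed when single arrays were left out. HIST1H4K was dim, with a mean signal of 103.6, and was detected on all 6 arrays. After quantile normalization it was higher, at 6.14, 6.30 and 6.86 on LEF25 arrays, against 5.81, 5.63 and 5.50 on DMSO arrays. That difference did not pass with all 6 arrays (0.79 ± 0.21 SE, adjusted p = 0.14 by limma) and passed without LEF25 replicate 3 (0.64, adjusted p = 0.0031 by limma). Under median scaling HIST1H4K was at 0.21, or 0.74 relative to the median gene. Entries that were not kept had similar values by that measure, such as 0.63 for HIST1H1B and 0.87 for HIST1H3J. The 0.74 alone therefore does not set HIST1H4K apart from background. Histone cluster genes are nearly identical in their coding parts, so probes may not tell every copy apart.

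Without LEF25 replicate 3, 10 cluster members fell and 2 rose, where 19.3% of all genes passed, with 9.94% lower and 9.33% higher. The 10 were HIST1H1C, HIST1H2AC, HIST1H2BG, HIST1H2BK, HIST1H4H and 5 genes of the HIST2 group on chromosome 1. The 2 that rose were HIST1H3C and HIST1H4K. In the same fit 4 variant members rose and 1 fell. Both genes past the threshold on all 6 arrays also passed here. This fit leaves 2 LEF25 arrays against 3 DMSO arrays.

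The HIST2 group, a small cluster apart from the large HIST1 cluster on chromosome 6, was lower in all 5 of its kept members. Their median was −0.82 on all 6 arrays, where none passed the threshold. It was −0.85 without LEF25 replicate 3, where all 5 fell, against 9.94% of all genes. Under median scaling they stood between −1.05 and −0.25 relative to the median of all genes, −0.53. The median there was −0.67 for genes with a mean signal over 150 and −0.30 for dimmer ones. HIST2H2AA3, which encodes an H2A and has an identical neighbouring copy, had log2 intensities of 9.60, 9.88 and 9.97 on LEF25 arrays and 10.54, 10.82 and 10.74 on DMSO arrays. The groups did not overlap (−0.88 ± 0.14 SE, adjusted p = 0.060 by limma). Its log2 fold change without LEF25 replicate 3 was −0.95 (adjusted p = 0.00023 by limma).

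HIST2H2BE, an H2B gene known for polyadenylated transcripts, stood at 6.87, 7.01 and 6.62 on LEF25 arrays and at 7.34, 7.90 and 7.79 on DMSO arrays. HIST2H2AC, an H2A gene, stood at 9.52, 9.66 and 10.29 on LEF25 arrays and at 10.21, 10.46 and 10.67 on DMSO arrays. HIST2H2BE groups were separate, whereas LEF25 replicate 3 of HIST2H2AC reached into the DMSO range. The log2 fold changes were −0.84 ± 0.19 SE for HIST2H2BE (adjusted p = 0.11 by limma) and −0.62 ± 0.23 SE for HIST2H2AC (adjusted p = 0.26 by limma). Without LEF25 replicate 3 they were −0.76 (adjusted p = 0.0039 by limma) and −0.85 (adjusted p = 0.00081 by limma). These genes start 235 bases apart on opposite strands, so the HIST2H2BE promoter printed above spans the stretch between them.

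HIST2H4A, an H4 gene with an identical copy, was at 6.78, 6.82 and 7.46 on LEF25 arrays and at 7.86, 7.91 and 7.75 on DMSO arrays. HIST2H2BF, an H2B gene, was dim, with a mean signal of 79.4, and LEF25 replicate 3 did not detect it. It was at 5.13, 5.08 and 4.57 on LEF25 arrays and at 5.54, 5.57 and 5.34 on DMSO arrays. All LEF25 values of both genes lay below all DMSO values. HIST2H4A had the larger difference, −0.82 ± 0.20 SE with all arrays (adjusted p = 0.13 by limma) and −1.07 without LEF25 replicate 3 (adjusted p = 2.2e-05 by limma). For HIST2H2BF it was −0.55 ± 0.18 SE (adjusted p = 0.20 by limma) and −0.43 without that array (adjusted p = 0.016 by limma). Of the 7 HIST2 members, HIST2H2AB and HIST2H3C were not kept.

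HIST1H2BK, an H2B gene of the HIST1 cluster, had a mean signal of 4725. It stood at 11.57, 11.77 and 11.68 on LEF25 arrays, against 12.29, 12.35 and 12.39 on DMSO arrays. The arrays of each treatment lay close together and far from the other treatment (−0.67 ± 0.10 SE, adjusted p = 0.051 by limma). Without LEF25 replicate 3 the difference was −0.66 and passed (adjusted p = 0.00098 by limma). HIST1H2BD stood at 7.63, 7.76 and 7.68 on LEF25 arrays, against 8.60, 8.82 and 8.85 on DMSO arrays. Its groups were as clearly separate, and it had failed the detection filter although its signals ran from 100.8 to 321.5 on LEF25 arrays and from 522.6 to 733.6 on DMSO arrays. When p-values that were not ranks were replaced by a signal limit, a filter added after the data were seen, HIST1H2BD fell 2.10-fold (−1.07 ± 0.12 SE, adjusted p = 0.022 by limma). With that filter 2 cluster members fell, where 1.07% of 12299 genes passed, with 0.862% lower and 0.203% higher.

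HIST1H2BJ, an H2B gene near HIST1H2BK in the cluster, was not lower. It was at 7.64, 7.57 and 8.06 on LEF25 arrays and at 7.30, 7.50 and 7.24 on DMSO arrays. The LEF25 arrays were all higher, but the difference did not pass (0.41 ± 0.16 SE, adjusted p = 0.28 by limma). It was 0.27 without LEF25 replicate 3 (adjusted p = 0.11 by limma) and −0.31 under median scaling, which is 0.22 relative to the median gene. HIST1H2BG, at a mean signal of 85.3, was at −0.28 ± 0.12 SE with all arrays (adjusted p = 0.32 by limma) and −0.41 without LEF25 replicate 3 (adjusted p = 0.018 by limma). The remaining kept HIST1 H2B genes, HIST1H2BC, HIST1H2BF and HIST1H2BM, lay between −0.15 and −0.02, and between −0.07 and 0.07 without LEF25 replicate 3, with mean signals of 62.4 to 73.2. HIST1H2BF and the H3 gene HIST1H3G were under the negative control mean on LEF25 replicate 3, while the other 5 arrays detected them.

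HIST1H2AC, the only kept H2A gene of the HIST1 group, stood at 6.85, 6.75 and 6.83 on LEF25 arrays and at 7.14, 7.67 and 7.28 on DMSO arrays. Its groups were separate, with more spread among DMSO arrays (−0.55 ± 0.16 SE, adjusted p = 0.16 by limma). It passed without LEF25 replicate 3 (−0.58, adjusted p = 0.014 by limma). HIST1H1C, which encodes the linker histone H1.2, stood at 8.19, 8.42 and 8.76 on LEF25 arrays and at 8.69, 8.90 and 8.64 on DMSO arrays. LEF25 replicate 3 lay within the DMSO range (−0.29 ± 0.17 SE, adjusted p = 0.45 by limma), and without it the difference was −0.45 (adjusted p = 0.018 by limma). The other kept H1 cluster gene, HIST1H1A, was at −0.04 ± 0.11 SE.

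Cluster H3 genes were dim, and all 7 kept ones had mean signals from 64.8 to 86.2. Their log2 fold changes ran from −0.38 for HIST1H3D to 0.24 for HIST1H3C, and none passed the test on all 6 arrays. HIST1H3D was at −0.23 without LEF25 replicate 3, which did not detect it. HIST1H3C passed without LEF25 replicate 3 (0.46, adjusted p = 0.039 by limma), and under median scaling it was at −0.03, or 0.49 relative to the median gene. Entries detected on no array had similar values by that measure, such as 0.63 for HIST1H1B and 0.42 for H2AFB1. The 0.49 therefore does not set HIST1H3C apart from background. The HIST3 genes rested on LEF25 replicate 3. HIST3H2A, an H2A gene, stood at 7.64, 7.72 and 5.96 on LEF25 arrays and at 7.27, 7.56 and 7.26 on DMSO arrays. Its log2 fold change was −0.26 ± 0.48 SE (adjusted p = 0.79 by limma) with all arrays and 0.32 (adjusted p = 0.070 by limma) without the third one. HIST3H2BB, its H2B neighbour, stood at 4.97, 4.91 and 6.42 on LEF25 arrays and at 4.81, 4.74 and 4.71 on DMSO arrays. Its difference was 0.68 ± 0.41 SE with all arrays (adjusted p = 0.45 by limma) and 0.21 without replicate 3 (adjusted p = 0.17 by limma).

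**Figure D3:**
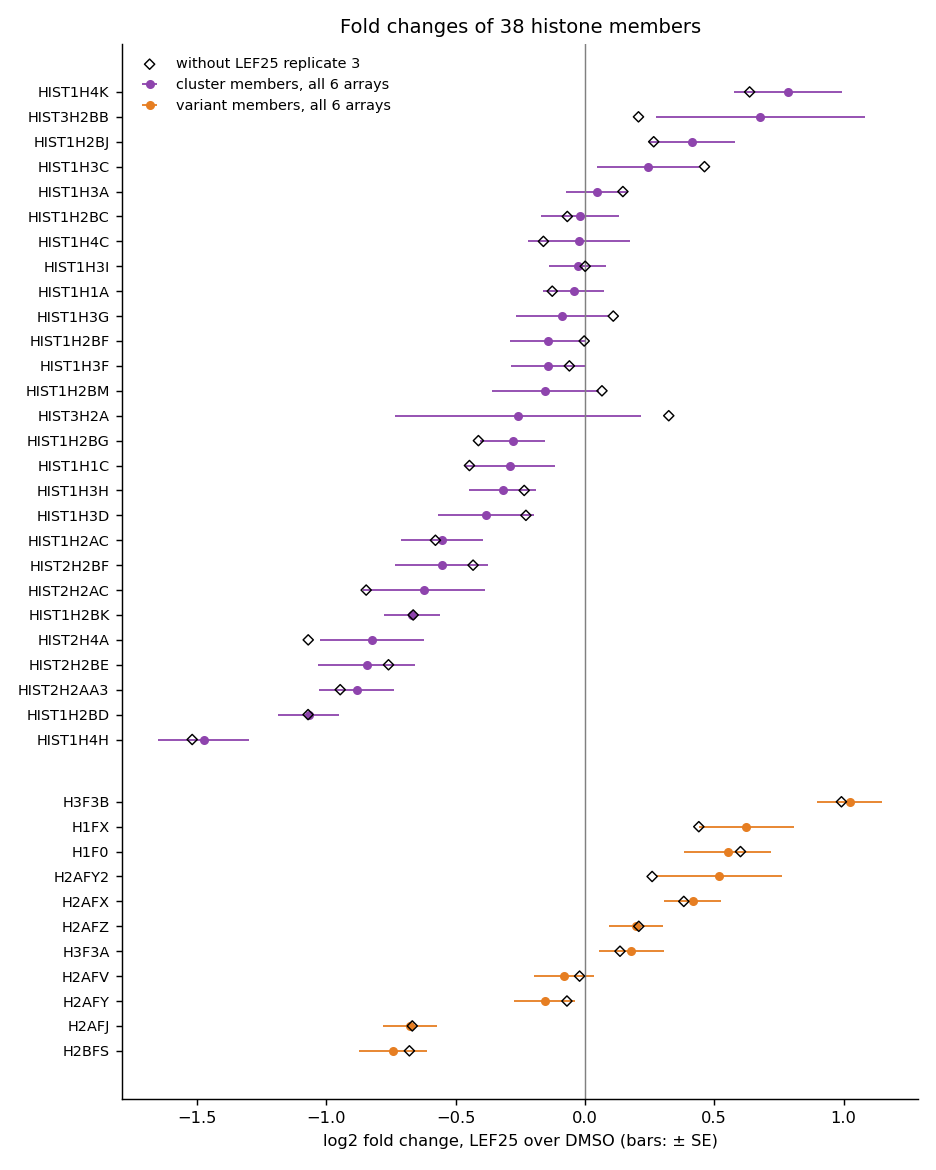
Log2 fold change, LEF25 over DMSO, of 27 cluster and 11 variant members with its SE on all 6 arrays (filled) and without LEF25 replicate 3 (open diamonds), with HIST1H2BD and H2AFJ included through the signal limit. HIST1H4H is lowest at −1.47 and H3F3B highest at 1.02.

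Among the replacement variants, H3F3B rose the most. It and H3F3A encode the same protein, H3.3, which replaces H3 at active genes and other sites outside replication. H3F3B stood at 9.84, 10.09 and 10.04 on LEF25 arrays, against 8.88, 8.91 and 9.11 on DMSO arrays. The groups were far apart, and H3F3B rose 2.03-fold (1.02 ± 0.12 SE, adjusted p = 0.028 by limma), with 0.99 without LEF25 replicate 3 (adjusted p = 0.00012 by limma). Leaving out any 1 of the other 5 arrays gave 0.97 to 1.10, with adjusted p = 0.11 to 0.21 by limma. Under median scaling it stood at 0.28 (adjusted p = 0.64 by limma), which is 0.81 relative to the median gene. H3F3A stood at 13.57, 13.63 and 13.73 on LEF25 arrays and at 13.27, 13.58 and 13.53 on DMSO arrays. Those groups overlapped (0.18 ± 0.12 SE, adjusted p = 0.50 by limma), and its value under median scaling was −0.26, or 0.27 relative to the median gene. Processed copies of both genes exist elsewhere in the genome.

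The replacement linker histone genes were also higher on LEF25 arrays. H1F0, whose product H1.0 is typical of resting and differentiated cells, stood at 11.62, 11.45 and 11.37 on LEF25 arrays and at 10.67, 11.21 and 10.91 on DMSO arrays. H1FX stood at 8.76, 8.87 and 9.38 on LEF25 arrays and at 8.35, 8.31 and 8.48 on DMSO arrays. Neither gene's groups overlapped. Differences were 0.55 ± 0.17 SE for H1F0 (adjusted p = 0.18 by limma) and 0.62 ± 0.18 SE for H1FX (adjusted p = 0.17 by limma). Both rose without LEF25 replicate 3, by 0.60 for H1F0 (adjusted p = 0.011 by limma) and 0.44 for H1FX (adjusted p = 0.011 by limma). Under median scaling H1F0 was at −0.08 and H1FX at −0.11, which are 0.44 and 0.42 relative to the median gene.

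H2AFX encodes H2A.X, which is phosphorylated around DNA breaks and stalled replication forks. It stood at 10.50, 10.63 and 10.63 on LEF25 arrays and at 10.15, 10.09 and 10.27 on DMSO arrays. The groups were separate (0.42 ± 0.10 SE, adjusted p = 0.13 by limma). It rose without LEF25 replicate 3 (0.38, adjusted p = 0.022 by limma), and under median scaling it was at −0.28, or 0.24 relative to the median gene. H2AFZ, which encodes H2A.Z, a variant found at promoters, stood at 13.45, 13.62 and 13.51 on LEF25 arrays and at 13.31, 13.32 and 13.37 on DMSO arrays. Its groups were separate by a small margin (0.20 ± 0.10 SE, adjusted p = 0.37 by limma), and under median scaling it was at −0.26, or 0.26 relative to the median gene. H2AFV, which encodes the second H2A.Z protein, had a mean signal of 103.3 and overlapped between treatments (−0.08 ± 0.11 SE, adjusted p = 0.71 by limma).

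The macroH2A genes H2AFY and H2AFY2 encode large H2A variants enriched in silent chromatin. H2AFY stood at 11.42, 11.41 and 11.16 on LEF25 arrays and at 11.50, 11.46 and 11.50 on DMSO arrays. H2AFY2 stood at 8.84, 8.60 and 9.50 on LEF25 arrays and at 8.31, 8.50 and 8.58 on DMSO arrays. All LEF25 values were lower for H2AFY and higher for H2AFY2, by small margins, and LEF25 replicate 3 lay farthest from the DMSO arrays. The differences were −0.16 ± 0.11 SE for H2AFY (adjusted p = 0.52 by limma) and 0.52 ± 0.24 SE for H2AFY2 (adjusted p = 0.35 by limma), and −0.07 and 0.26 without that array. H2AFY2 was at −0.21 under median scaling, or 0.31 relative to the median gene.

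A pair of genes named with the variants were lower. H2BFS, an H2B gene outside the clusters, stood at 7.61, 7.68 and 7.44 on LEF25 arrays and at 8.23, 8.50 and 8.23 on DMSO arrays. Its groups were separate (−0.74 ± 0.13 SE, adjusted p = 0.069 by limma), and it fell without LEF25 replicate 3 (−0.68, adjusted p = 0.0014 by limma). H2BFS, now H2BC12L, closely resembles HIST1H2BK, which had a difference of −0.67, so their probes may read the same transcripts. H2AFJ, which encodes the replacement histone H2A.J, stood at 6.97, 7.13 and 6.97 on LEF25 arrays and at 7.72, 7.67 and 7.71 on DMSO arrays. It too had failed the detection filter on such p-values. With the signal limit H2AFJ fell 1.60-fold (−0.68 ± 0.10 SE, adjusted p = 0.049 by limma).

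**Figure D4:**
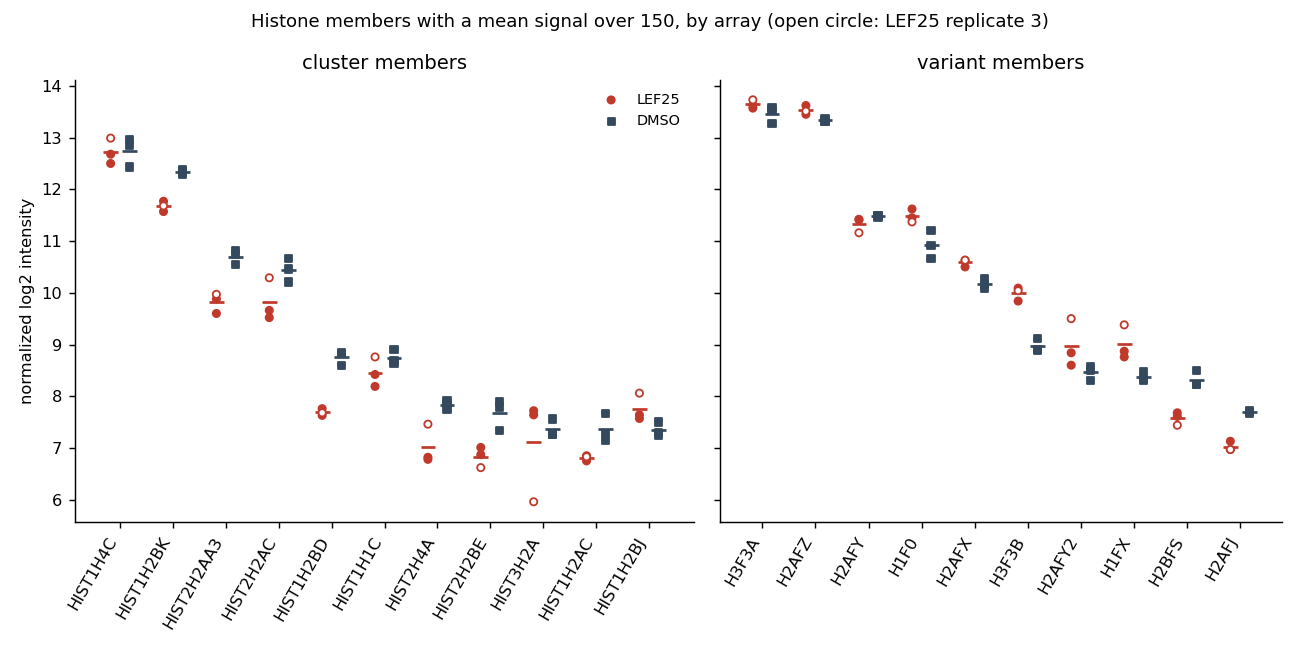
Normalized log2 intensity of the 11 cluster and 10 variant members with a mean signal over 150, on each LEF25 array (red circles, replicate 3 open) and DMSO array (blue squares), with group means as bars. LEF25 values lie below DMSO values without overlap for genes such as HIST1H2BK, HIST1H2BD, HIST2H2AA3, H2BFS and H2AFJ, and above them for genes such as H3F3B, H1F0, H1FX and H2AFX.

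Genes that make and handle histone mRNA showed few differences. Of 20 listed, 15 were tested, none passed on all 6 arrays by limma with adjustment over all genes, and the median was −0.07. An unadjusted p under 0.05 was reached by 2 of the 15, against 16.9% of all genes. Without LEF25 replicate 3, 2 fell and none rose, where 19.3% of all genes passed. These were CPSF2, a subunit of the complex that cuts histone pre-mRNA, at −0.64 with all arrays and −0.62 without that array (adjusted p = 0.066 and 0.0018 by limma), and ZCCHC6, a uridylyl transferase, at −0.63 and −0.61 (adjusted p = 0.11 and 0.0033 by limma). SLBP, the protein that binds the histone stem-loop, was at 0.16 ± 0.17 SE (adjusted p = 0.63 by limma). NPAT, the activator of cluster transcription, was at −0.15 ± 0.11 SE (adjusted p = 0.53 by limma).

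Histone chaperones, which carry histones to DNA, were mixed. Of 26 listed, 21 were tested, none passed on all 6 arrays by limma, and the median was 0.23. An unadjusted p under 0.05 was reached by 4 of the 21, near the 16.9% of all genes. Without LEF25 replicate 3, 5 rose and 3 fell, where 19.3% of all genes passed. SET was at 0.53 with all arrays and 0.59 without it, the CAF-1 subunit genes CHAF1B at 0.45 and 0.37 and CHAF1A at 0.79 and 0.39, and SSRP1 of the FACT complex at 0.84 and 0.38. NAP1L1, an H2A-H2B chaperone, was at 0.24 and 0.32. SPTY2D1, an H3-H4 chaperone, was at −0.74 and −0.45, and VPS72, which binds H2A.Z, at −0.43 and −0.44. ASF1B, which hands H3 and H4 to other chaperones, stood at 8.81, 8.87 and 4.34 on LEF25 arrays, against 9.27, 9.09 and 9.12 on DMSO arrays. Its log2 fold change of −1.82 ± 1.21 SE rested on the low value of replicate 3 and was −0.32 without it (adjusted p = 0.047 by limma). ASF1A was at −0.28 ± 0.22 SE and DAXX, a chaperone of H3.3, at 0.30 ± 0.18 SE, and neither passed in either fit. HIRA, another chaperone of H3.3, was not kept. Median scaling was not run for these 2 lists.

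The labelled cell type was checked against its markers. Of 10 melanocyte and melanoma markers, SOX10, CSPG4 and TFAP2A were detected on all 6 arrays, and MLANA, TYR, DCT and S100B on none. MITF was detected on 1 LEF25 array, PMEL on 1 LEF25 and 3 DMSO arrays, and MCAM on 2 LEF25 and 3 DMSO arrays. No leukocyte marker of 5 and no endothelial marker of 4 was detected on all 6 arrays. LYZ of the leukocyte list and PECAM1 and TEK of the endothelial list were detected on 2 LEF25 and 3 DMSO arrays, and CD14 on 2 LEF25 and 1 DMSO arrays, all with signals of at most 103.7. PTPRC, CD3E, CDH5 and VWF were detected on none. Of 5 epithelial markers, the keratin genes KRT14 and KRT8 were detected on all 6 arrays, EPCAM on some, and KRT5 and CDH1 on none. Of 5 fibroblast markers, PDGFRB was detected on all 6 arrays, COL1A1, DCN and LUM on some, and COL1A2 on none.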

How the data were processed

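RNA of A375 cells was measured on 6 Illumina bead arrays, and samples were grouped by the treatment in their labels. The deposited intensity values are linear bead signals of 38275 entries that, per the file headers, had no normalization between arrays. The submitters' processing notes name GenomeStudio. The authors had combined the probes of a gene, and deposited for each signal a detection p-value against negative control beads. On 32290 entries it was a rank among 759 control bead types, within a tolerance of 0.001, and these gave the control mean and SD. The genome build used upstream is not given in the sources used here. A second deposited table of intensity values, without gene names, was not used.

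With limma 3.58.1 in R 4.3.3, background was corrected by normexp with an offset of 16, log2 was taken and arrays were quantile-normalized. The offset understates changes of dim genes. Entries detected at p under 0.05 on at least 3 of 6 arrays were kept, and older symbols were updated through RefSeq (77 of the 82 members), leaving 12345 genes. LEF25 was compared with DMSO by lmFit and eBayes without a replicate block, with Benjamini-Hochberg adjustment over all genes and a threshold of 0.05. The labels do not say whether arrays came from separate cultures. The p-values therefore reflect the spread among these arrays only, and that spread may be technical. The number of arrays limits the precision. Same-numbered arrays correlated at −0.009, 0.206 and 0.216 in their deviations, and the other pairs at −0.239 to 0.179. Whether the numbers pair the arrays cannot be told from these values. The main fit takes no pairing, and a fit with a replicate block gave 4 genes past the threshold.

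The members and gene lists were chosen with earlier results of these data known. Named are members past the threshold in the fit of all arrays or without LEF25 replicate 3, kept variants, the 12 brightest cluster members, the 6 with the largest change, members under the negative control mean on LEF25 replicate 3 and detected on the other 5 arrays, and up to 6 genes of each partner list past the threshold. Other genes named were chosen after their values were seen. In simulated data with 6 arrays and 12345 genes, this test recovered 66% of genes lowered and 76% of genes raised by 1 log2 unit, with 9 false calls. The simulated spread of each gene was capped, and no simulated array stood apart as LEF25 replicate 3 does. These rates are therefore not those of the real comparison.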

Additional observations from a re-analysis of the deposited data

How the results depend on the processing

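With 132 genes past the threshold on all 6 arrays, single choices changed the counts strongly. Median scaling and no normalization gave 0 genes and 0 members, array weights 2549 genes and 16 members (11 cluster, 5 variant), and a replicate block 4 genes and 0 members. Leaving out 1 array each gave 3 to 2379 genes, 0 to 17 members, 0 to 12 cluster and 0 to 5 variant members. The highest of each came without LEF25 replicate 3, and the fits without any other array called 0 members. No background correction, an offset of 50 and a trended robust variance gave 151, 165 and 130 of 12345 genes. Each of these gave 4 members, 3 of them cluster. No filter gave 186 of 25233 genes and 5 of 82 members (3 cluster, 2 variant). Detection on all 6 arrays gave 161 of 8536 genes and 4 of 22 members (2 and 2). Detection at p under 0.01 gave 138 of 9722 genes and 3 of 23 members (2 and 1). The signal limit, chosen after the data were seen, gave 131 of 12299 genes and 4 members (2 and 2). Without LEF25 replicate 3 it gave 2611 genes and 19 members (13 cluster, 6 variant).

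The cluster median of −0.21 was −0.49 with median scaling, −0.55 without normalization, −0.00089 without a filter, which adds genes near background, and −0.42 with detection at p under 0.01. The variant median of 0.31 reversed to −0.26 with median scaling and −0.32 without normalization, and was 0.091 with median scaling without LEF25 replicate 3. It was 0.014 without a filter, 0.42 with detection on all 6 arrays or at p under 0.01, 0.20 with the signal limit and 0.21 with that limit without LEF25 replicate 3. Leaving out 1 array each gave 0.23 to 0.34. At p under 0.01, the mean number of cluster members detected was 12 on LEF25 and 15.3 on DMSO arrays, against 25.3 and 26 at 0.05, and of variant members 8.67 and 9.33, against 9.67 and 10.

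With median scaling and without normalization, the sign reversed for H1F0 (−0.084 and −0.15), H1FX (−0.11 and −0.17), H2AFX (−0.28 and −0.35), H2AFY2 (−0.21 and −0.28), H2AFZ (−0.26 and −0.33), H3F3A (−0.26 and −0.32), HIST1H3C (−0.033 and −0.096) and HIST1H2BJ (−0.31 and −0.37). The cause was not tested beyond the shift of all genes by −0.53 with median scaling. HIST1H4C ranged from −0.18 to 0.090 over the fits without 1 array. Over those fits HIST3H2A ranged from −0.56 to 0.32 and HIST1H3G from −0.19 to 0.11. HIST3H2A reversed to 0.29 with array weights and 0.32 without LEF25 replicate 3, and HIST1H3G to 0.085 and 0.11. HIST1H4H and H3F3B kept their direction in each alternative that tested them, and detection on all 6 arrays left out HIST1H4H. They lost the threshold with median scaling, without normalization, with the block and without any array other than LEF25 replicate 3.

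The second deposited table could not be matched to gene names, so that alternative was not run. Signals near background limit 16 of the 26 kept cluster members.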
